A study of Mus musculus with 3 samples.

Results

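Transcripts of 8 genes of the interleukin-1 family were followed in mouse retina after injection of agents related to caveolin-1 into the vitreous. The genes encode the cytokines Il1a, Il1b, Il1f9 and Il18, the antagonist Il1rn, the signalling receptor Il1r1, its accessory chain Il1rap and the decoy receptor Il1r2. They were taken by symbol, 1 probe set per gene, and all 8 were measured among 22180 genes with a single symbol. The set was put together with values from these arrays in view, so the differences below describe the 3 arrays and carry no test.

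The study had 3 arrays and 1 array per group, all of retinae from C57 mice with no genetic change named, and the age and sex of the animals were not stated. The AP control was taken 2 hr after injection of AP, an agent whose name the labels do not spell out. The cavtratin group was taken 2 hr after injection of cavtratin, a peptide that enters cells and holds the scaffolding domain of caveolin-1. The Cav1-shRNA group was taken 2 days after injection of a short hairpin RNA named for Cav1. RNA of 5 to 6 retinae was pooled for each array, which lessens the spread between animals but does not remove it. With 1 array per group, neither that spread nor the error of the arrays can be estimated. No uninjected eye and no 2-day control were analysed here. Comparisons of Cav1-shRNA with either other array therefore join the agent to the time, and the 2 cannot be told apart. Values are deposited expression levels read as log2, on which a difference of 1 is 2-fold. Levels of different genes are not compared, since each probe set has its own scale.

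Interleukin-1 alpha and beta are early inflammatory cytokines that signal through the receptor chain encoded by Il1r1 together with the accessory chain encoded by Il1rap. The receptor complex recruits the adaptor Myd88 and kinases of the Irak family and leads to NF-kB and MAP kinase activity. The pathway is held back at several levels: the antagonist encoded by Il1rn occupies the receptor without signalling, and the decoy encoded by Il1r2 binds interleukin-1 but lacks a signalling domain. Il1f9 encodes interleukin-36 gamma, which signals through another receptor, Il1rl2, with the same accessory chain. Interleukin-18 and interleukin-1 beta are made as precursors that caspase-1 cleaves. In retina these cytokines are known from microglia, infiltrating leukocytes and Muller glia.

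The arrays were first checked for tissue and target. The 6 measured rod photoreceptor markers lay between −0.10 and 0 in cavtratin minus AP control and between −0.05 and 0.0064 in Cav1-shRNA minus AP control, and all of them were at or above the expression floor. That floor was set at 6.5, the median of the mean over the arrays, and a gene below it is described as low. Cav1 had the value 8.26 on all 3 arrays, an exact tie. The array labelled Cav1-shRNA thus gave no lower Cav1 value, but a tie does not show that the level was the same. A lower Cav1 level is therefore not shown by these values, and every direction drawn from that array carries that limit. The median over all probe sets was 6.07 on the AP array, 6.01 on the Cav1-shRNA array and 6.06 on the cavtratin array. Of all 22180 genes, 11510 reached the floor on any array. Being low on all 3 arrays was thus common, as follows from a floor set at a median. Exact ties were common too: of those 11510 genes, 43.2% had 1 value on all 3.

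The cavtratin array was set against the AP control of the same time, a comparison that asks how the peptide differs from its control at 2 hr. Both interleukin-1 agonists, the antagonist, the decoy receptor and interleukin-36 gamma were higher with cavtratin, while the signalling receptor, its accessory chain and interleukin-18 differed little or not at all. Of the 8 members, 5 were at least 2-fold higher (Il1a, Il1b, Il1rn, Il1f9 and Il1r2) and 0 were at least 2-fold lower. Over all 22180 genes 0.703% passed 2-fold upward and 0.0496% downward. The median difference of the members was 2.19, against 0 for all genes. The genes were chosen from this contrast among others, so nothing is read from that gap.

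Among the agonists, Il1a was at 8.56 on the AP array, 8.53 on the Cav1-shRNA array and 11.01 on the cavtratin array. Il1b was at 9.65 on the AP array, 9.62 on the Cav1-shRNA array and 11.75 on the cavtratin array. For both genes the cavtratin array stood alone and the other 2 arrays lay close together. The differences of cavtratin from AP control were 2.46 for Il1a, a 5.48-fold higher level, and 2.09 for Il1b, a 4.27-fold higher level. All 6 of these values were above the floor, those of the AP array included.

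Il1f9, the interleukin-36 gamma gene, was at 6.28 on the AP array, 8.18 on the Cav1-shRNA array and 9.83 on the cavtratin array. Its difference of 3.54 between cavtratin and AP control, or 11.6-fold, was the largest of the 8 and stood at position 6 among the 11477 genes at or above the floor. The AP value lay below the floor, so the fold can be too small. Unlike Il1a and Il1b, this gene had an intermediate value on the Cav1-shRNA array.

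The inhibitory members had the same order of arrays as Il1f9. Il1rn, the receptor antagonist gene, was at 6.85 on the AP array, 8.10 on the Cav1-shRNA array and 9.43 on the cavtratin array. Il1r2, the decoy receptor gene, was at 5.62 on the AP array, 6.47 on the Cav1-shRNA array and 7.91 on the cavtratin array. In both genes AP control was lowest and cavtratin highest. Cavtratin exceeded AP control by 2.57 in Il1rn, or 5.95-fold, and by 2.29 in Il1r2, or 4.89-fold. For Il1r2 the cavtratin array was the 1 array above the floor, so its fold can also be too small.

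The receptor chains that transmit the signal were nearly level. Il1r1 was at 8.001 on the AP array and at 7.88 on the Cav1-shRNA and cavtratin arrays, a difference of −0.12. Il1rap was at 8.06 in AP control and Cav1-shRNA and at 8.17 in cavtratin, 0.12 higher. Both are smaller than 0.139, the SD in this comparison between different probe sets of a gene, over 279 genes. That SD uses the 2 probe sets of a gene with the highest means, their gap divided by the square root of 2. It is thus a spread per probe set and holds no spread between animals. Il1rap had 2 further probe sets, both low: one at 5.96 on the AP array, 5.80 on the Cav1-shRNA array and 5.84 on the cavtratin array, and one at 4.02 on all 3 arrays. The first of these differed from AP control by −0.13 in cavtratin, opposite in sign to the probe set used. Il18 was at 7.10 on all 3 arrays, an exact tie of the kind seen in 54.4% of genes at or above the floor between cavtratin and AP control. The tie does not show that its level was the same.

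**Figure D1:**
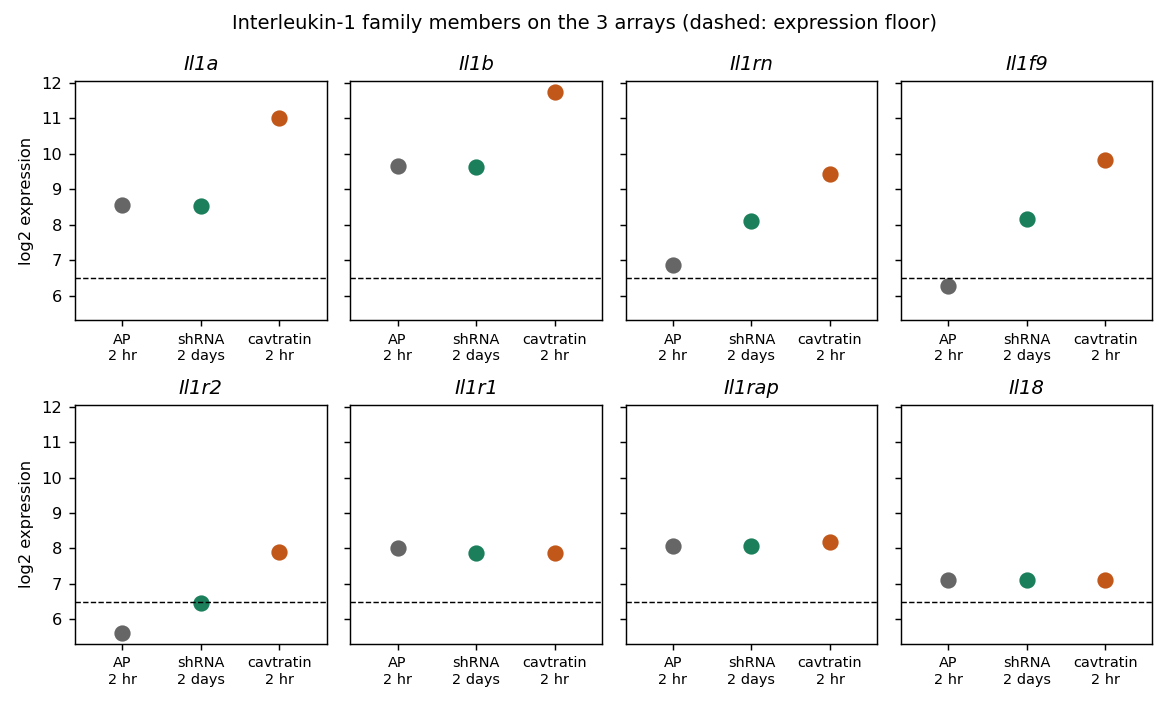
Deposited log2 expression (y axis) of each of the 8 members on the 3 arrays (x axis), 1 point per array and no error bars because each group has 1 array. Il1a and Il1b are high on the cavtratin array alone, Il1rn, Il1f9 and Il1r2 step up from AP control through Cav1-shRNA to cavtratin, and Il1r1, Il1rap and Il18 are close to level. The dashed line is the floor of 6.5.

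The promoters of the 4 members with the largest differences from AP control are shown, because these genes were high on the cavtratin array together and differ in what their start regions hold. Each window runs from 250 bases before to 50 bases after an annotated start, 5′ to 3′ on the gene's strand, from RefSeq on build GRCm38.p6, in which all 8 members were matched, with 11 windows in all. Il1rn has 3 annotated starts, and the first 2 windows are given. The third overlaps the second, and it is not printed. Capitals mark matches to the motifs described after the sequences.
Il1f9 window 1, chr2:24186226-24186525, plus strand: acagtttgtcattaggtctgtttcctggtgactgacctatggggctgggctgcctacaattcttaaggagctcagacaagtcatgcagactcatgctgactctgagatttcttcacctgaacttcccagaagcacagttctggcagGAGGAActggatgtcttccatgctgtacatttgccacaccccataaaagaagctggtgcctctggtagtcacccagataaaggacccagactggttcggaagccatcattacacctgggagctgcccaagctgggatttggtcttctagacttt
Il1rn window 1, chr2:24336610-24336909, plus strand: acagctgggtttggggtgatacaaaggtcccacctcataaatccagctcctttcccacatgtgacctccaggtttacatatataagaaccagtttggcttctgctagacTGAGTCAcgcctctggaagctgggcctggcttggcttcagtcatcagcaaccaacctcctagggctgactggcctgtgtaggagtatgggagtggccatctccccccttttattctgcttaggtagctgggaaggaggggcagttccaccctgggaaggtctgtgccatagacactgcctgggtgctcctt
Il1rn window 2, chr2:24345041-24345340, plus strand: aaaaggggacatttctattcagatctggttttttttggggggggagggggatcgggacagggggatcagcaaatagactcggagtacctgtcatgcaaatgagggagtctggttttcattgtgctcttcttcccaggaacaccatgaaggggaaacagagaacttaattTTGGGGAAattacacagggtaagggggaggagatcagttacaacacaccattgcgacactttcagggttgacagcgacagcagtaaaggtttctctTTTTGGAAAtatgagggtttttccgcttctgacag
Il1a window 1, chr2:129309923-129310222, minus strand: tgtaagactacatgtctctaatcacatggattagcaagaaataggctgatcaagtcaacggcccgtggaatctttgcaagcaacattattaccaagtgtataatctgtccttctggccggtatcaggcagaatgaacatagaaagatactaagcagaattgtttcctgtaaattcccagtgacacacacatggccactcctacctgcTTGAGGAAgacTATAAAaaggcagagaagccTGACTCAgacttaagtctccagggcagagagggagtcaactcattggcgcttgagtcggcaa
Il1r2 window 1, chr1:40085843-40086142, plus strand: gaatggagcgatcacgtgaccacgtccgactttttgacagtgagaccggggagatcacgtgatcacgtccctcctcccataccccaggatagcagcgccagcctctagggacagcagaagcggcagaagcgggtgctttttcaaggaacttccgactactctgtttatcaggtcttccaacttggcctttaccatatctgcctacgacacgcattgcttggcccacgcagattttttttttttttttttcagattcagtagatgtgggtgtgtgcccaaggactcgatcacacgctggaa

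Searched on both strands were the NF-kB consensus, AP-1 as TGANTCA, C/EBP as TTNNGNAA, the PU.1 core as GAGGAA and the TATA motif as TATAAA. Shares below are of all 27025 genes with a window in the table. A match describes letters and is not a binding site, and no match says only that these letters are absent from the window. The Il1a window held a TATA match with its leftmost base at −32, an AP-1 match at −12, and C/EBP and PU.1 matches at −43 and −41 that overlap each other. Il1b, with the same pattern over the arrays as Il1a, had a TATA match at −31 and a C/EBP match at −91. The first Il1rn window held an AP-1 match at −141, and the second held 3 C/EBP matches, at −81, 16 and 17, the last 2 overlapping. Il1f9 held a PU.1 core at −104, and Il1r2 held none of the 5 motifs. An AP-1 match was found in 2 of the 8 members, Il1a and Il1rn, and in 8.97% of all genes. The letters TATAAA were found in 4 members, against 15.7% of all genes: beside Il1a and Il1b these were Il18, at −175, and Il1rn, at 15 in the window not printed. C/EBP matches were found in 4 members, Il1a, Il1b, Il1rn and Il1r1, against 44.1% of all genes, and PU.1 cores in 2, Il1a and Il1f9, against 31.3%. The NF-kB consensus was found in 1 member, Il1r1, and in 9.55% of all genes. Members with several windows had more chances of a match.

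The Cav1-shRNA array at 2 days was set against AP control at 2 hr. Interleukin-36 gamma and the receptor antagonist were higher, the decoy receptor was higher but low, and both interleukin-1 agonists lay within 0.04 of the control. Of the 8 members, 2 passed 2-fold upward (Il1f9 and Il1rn) and 0 downward, where all genes had 0.176% higher and 0.0631% lower. The median difference was 0 for the members and 0 for all genes.

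Il1f9 was 1.89 higher, or 3.71-fold, and Il1rn 1.25 higher, or 2.38-fold. Il1r2 was 0.85 higher, or 1.81-fold, but with 6.47 as its higher value it did not reach the floor. Il1a differed by −0.03 and Il1b by −0.04, within the SD of 0.0887 between probe sets of one gene over 274 genes. Centring the arrays on their medians, which moved the median of all genes by 0.058, turned their sign, to 0.027 and 0.020. With quantile normalization they stayed negative, at −0.018 and −0.037, so no direction is given. Il1r1 was at −0.12, beyond that SD, and still so with the loess trend subtracted. After centring it was at −0.059 and with quantile normalization at −0.084, both within the SD. Il1rap and Il18 had exact ties, as had 52.7% of genes at or above the floor. The antagonist and the agonists therefore parted on this array: the difference of Il1rn from AP control exceeded that of Il1b by 1.29 and that of Il1a by 1.28. In the cavtratin array the same gaps were 0.48 and 0.12. Both sets of gaps use the AP control array.

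A last comparison set Cav1-shRNA against cavtratin, without the AP control. It reuses the cavtratin array of the first comparison, so the 2 results are not independent. The 5 members that were high with cavtratin were all at least 2-fold lower in Cav1-shRNA, and 0 were at least 2-fold higher. Over all genes 0.406% were at least 2-fold lower and 0.018% higher. The median difference of the members was −1.38, and that of all genes was 0. Il1a was at −2.49 and Il1b at −2.13, which are 5.60-fold and 4.39-fold lower levels at 2 days than with cavtratin at 2 hr. Il1f9 at −1.65, Il1r2 at −1.43 and Il1rn at −1.32 were closer to cavtratin, with levels 3.14-fold, 2.70-fold and 2.50-fold lower. Il1rap was at −0.12, and Il1r1 and Il18 were exactly equal, like 54.6% of genes at or above the floor. The SD between probe sets of one gene was 0.134 here, over 278 genes.

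**Figure D2:**
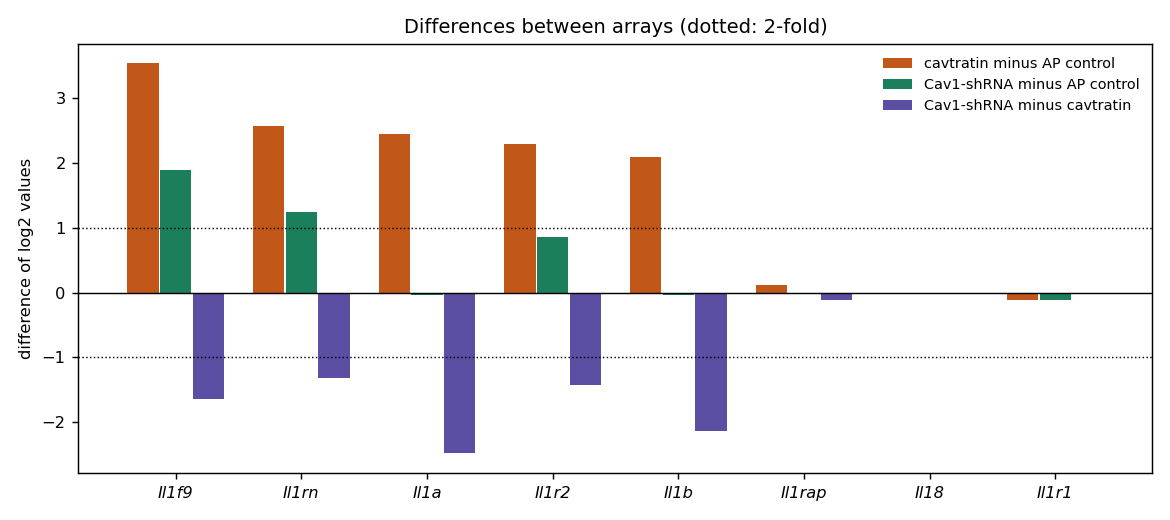
Difference of log2 values (y axis) for each member (x axis) in the 3 comparisons, with bars starting at 0, dotted lines at 2-fold and no error bars because each group has 1 array. The bars of Il1a and Il1b are near 0 for Cav1-shRNA minus AP control, at −0.03 and −0.04, and those of Il1f9 and Il1rn reach 1.89 and 1.25.

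The rest of the family differed little between arrays. Of 6 other family ligands and binding proteins measured, 0 were at least 2-fold apart in any of the 3 comparisons, and the median difference was 0 in each. Il33, an alarmin stored in nuclei that is made by Muller glia in retina, was at 9.25 on the AP array, 9.27 on the Cav1-shRNA array and 9.73 on the cavtratin array, 0.48 higher in cavtratin than in AP control. Il18bp, a soluble inhibitor of interleukin-18, was at −0.09 from AP control in both other arrays. The other 4, Il1f5, Il1f6, Il1f8 and Il1f10, were below the floor on all 3 arrays, so Il1f9 was the 1 interleukin-36 or Il1f-type ligand above it. Of 6 other family receptors measured, 5 were below the floor on all 3 arrays and 0 were at least 2-fold apart. Among the low ones was Il1rl2, the receptor chain for interleukin-36, at 4.24 on every array. Il18rap, the accessory chain of the interleukin-18 receptor, was low at 5.44 on the AP array, 5.78 on the Cav1-shRNA array and 6.40 on the cavtratin array, a gene named after its values were seen. Il1rapl1, a synaptic relative of the accessory chain, was the 1 receptor above the floor, at −0.05 from AP control in both other arrays.

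Members that neighbour each other on a chromosome did not always share a pattern. Il1a and Il1b are neighbours on chromosome 2 with no other measured gene between them, and both were high on the cavtratin array alone. Il1f9 and Il1rn bound another group on chromosome 2, and the 3 measured genes between them, Il1f6, Il1f5 and Il1f10, were low and differed from AP control by −0.09 to 0. On chromosome 1, Il1r2 and Il1r1 stand next to each other among measured genes, yet their differences between cavtratin and AP control lay 2.41 apart. Farther along, Il1rl2 and Il18r1 had exact ties on all 3 arrays, and Il18rap, last in the group and low, was at 0.96 in cavtratin and 0.35 in Cav1-shRNA from AP control, the order of arrays seen in Il1r2.

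**Figure D3:**
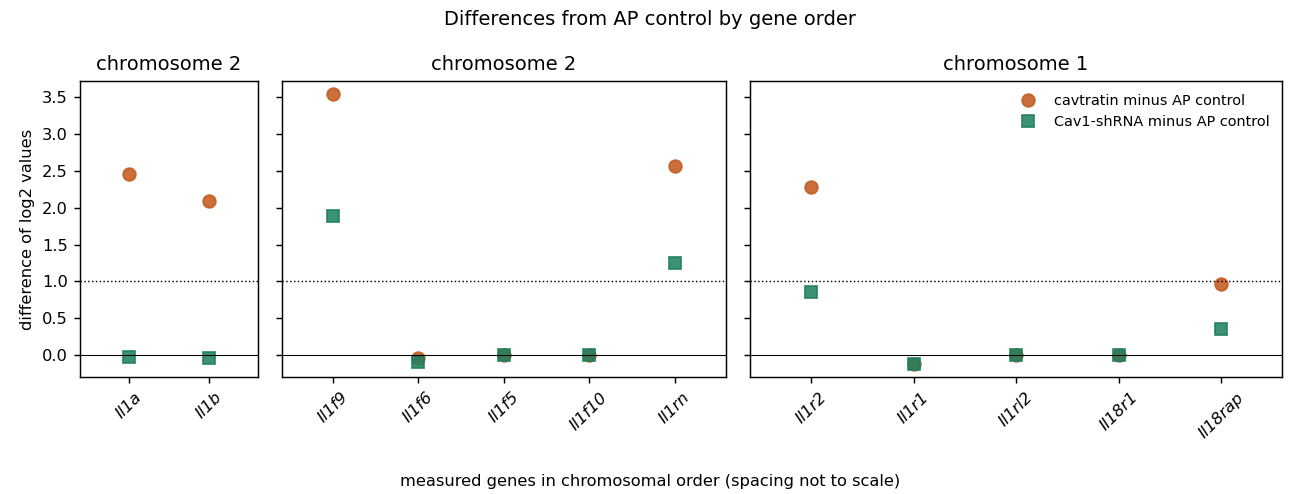
Difference of log2 values from AP control (y axis) for measured genes in chromosomal order (x axis, spacing not to scale) in 3 gene groups, circles for cavtratin and squares for Cav1-shRNA, both from the same AP array. Il1f9 and Il1rn stand at 3.54 and 2.57 on either side of 3 low genes at or near 0, and Il1r2 at 2.29 stands beside Il1r1 at −0.12.

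In the signalling chain below the receptor 1 gene was 2-fold apart. Of 19 measured genes, 1 was at least 2-fold higher in cavtratin than in AP control, 0 were lower, and 14 had a difference of exactly 0. It was Irak3, which encodes an inhibitory Irak protein that restrains signalling by the receptor complex. Irak3 was at 5.98 on the AP array, 6.80 on the Cav1-shRNA array and 7.99 on the cavtratin array, with AP control low. It differed from AP control by 2.01 in cavtratin and by 0.81 in Cav1-shRNA, the order of arrays seen in Il1rn, Il1r2 and Il1f9. Irak2, a kinase of the receptor complex, was 0.43 higher in cavtratin, and Map3k8, a MAP kinase kinase kinase, 0.45 higher. In Cav1-shRNA they were 0.18 and 0.05 above AP control. They thus had the same order of arrays, which was not particular to inhibitory genes. Myd88, the adaptor, was at 8.48 on the AP array, 8.42 on the Cav1-shRNA array and 8.50 on the cavtratin array. Between Cav1-shRNA and AP control 0 of the 19 were 2-fold apart, and against cavtratin Irak3 alone was, at −1.20.

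Genes that process and release the cytokines were mostly low, 10 of 15 being below the floor on all 3 arrays, caspase-1 among them. Over all 22180 genes, 11510 reached the floor on any array. At least 2-fold higher in cavtratin than in AP control were 2, and 0 were lower. Nlrp3, an inflammasome sensor, was at 6.07 on the AP array, 6.33 on the Cav1-shRNA array and 7.99 on the cavtratin array, a difference of 1.93. Casp4, the mouse sensor of intracellular lipopolysaccharide, was 1.62 higher. In both genes the cavtratin array was the 1 array above the floor. Casp8 was 0.40 higher. In Cav1-shRNA 0 of the 15 were 2-fold apart from AP control, with Ctss, a cathepsin that can activate interleukin-36 gamma, 0.87 higher, at 8.24 on the AP array, 9.10 on the Cav1-shRNA array and 8.57 on the cavtratin array. Casp1 itself was at 4.44, 4.44 and 4.65, low on every array.

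Textbook interleukin-1 targets split in both directions. Of 31 measured, 6 were at least 2-fold higher in cavtratin than in AP control and 5 were at least 2-fold lower, with a median of 0.05. In Cav1-shRNA 2 were higher and 5 lower than in AP control, with a median of −0.08, and against cavtratin 0 were higher and 6 lower, with a median of −0.36. The neutrophil-attracting chemokine gene Cxcl3 was at 4.17 on the AP array, 7.01 on the Cav1-shRNA array and 9.10 on the cavtratin array. Saa3, an acute-phase protein gene, was at 8.14, 10.25 and 11.53 in the same order, so both genes ordered the arrays as Il1f9 and Il1rn did. Ccl2, a chemokine for monocytes, was instead highest in AP control, at 10.58 on the AP array, 7.46 on the Cav1-shRNA array and 8.04 on the cavtratin array. The cytokine Il6 was at 7.31, 4.34 and 4.98, highest in AP control too. In both genes Cav1-shRNA was below cavtratin, as it was in Cxcl3 and Saa3. The other lower genes in cavtratin were Ccl7, Lif and Ptx3, and in Cav1-shRNA Ccl7, Lif and Cxcl1, all named after their values were seen.

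**Figure D4:**
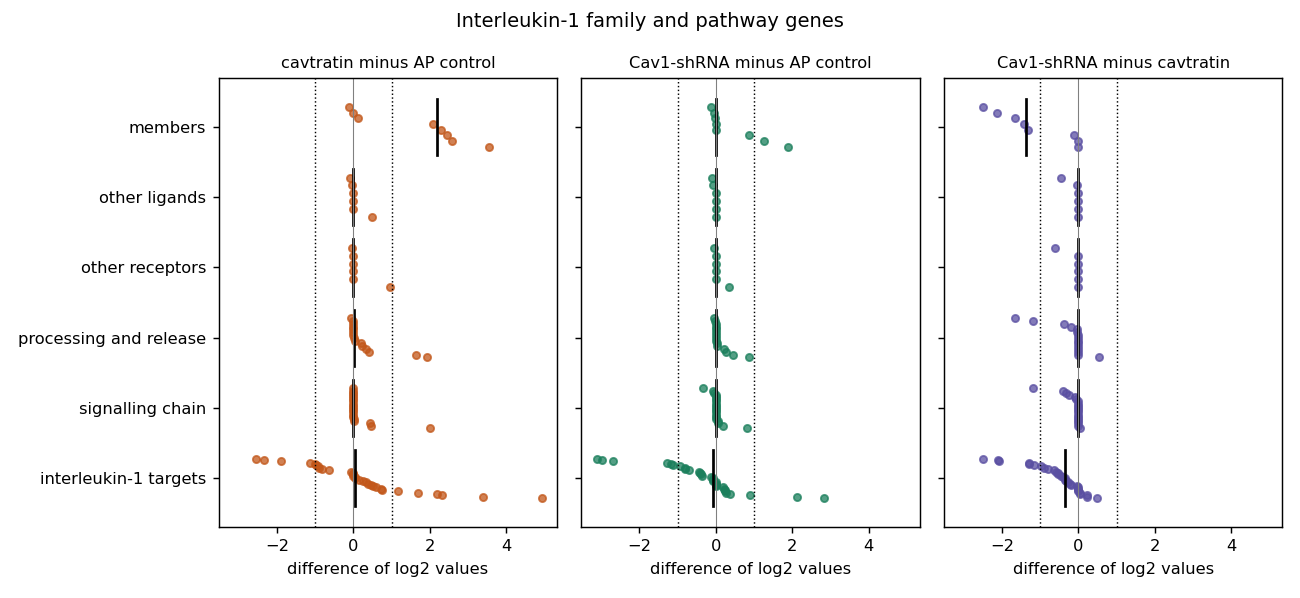
Difference of log2 values (x axis) for each measured gene (points) of the 8 members and 5 pathway lists (rows) in the 3 comparisons (panels), with bars at the list medians and dotted lines at 2-fold. In cavtratin minus AP control, Irak3 at 2.01, the low gene Il18rap at 0.96, Il33 at 0.48, Map3k8 at 0.45 and Irak2 at 0.43 stand out from the signalling chain and the other ligands and receptors, and the targets spread to both sides, from −2.54 to 4.93.

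Several markers of leukocytes were higher than in AP control in the comparisons in which members were higher. In bulk retina, more cells of a type and more RNA per cell cannot be told apart. Of 12 neutrophil markers, 6 were at least 2-fold higher in cavtratin than in AP control and 1 in Cav1-shRNA, with medians of 1.02 and 0.24. Their summed level, as log2 of the summed linear values, was 9.24 on the AP array, 9.74 on the Cav1-shRNA array and 11.17 on the cavtratin array. Here and in the lists below, such a sum joins probe sets of different scales and leans on those with the highest values. The granule genes Camp, Ltf, Ngp, Mpo and Elane and the surface marker Ly6g were below the floor on all 3 arrays. Of 9 monocyte and macrophage markers, 5 passed 2-fold upward in cavtratin and 4 in Cav1-shRNA, with medians of 1.58 and 0.96 and summed levels of 10.81 on the AP array, 11.79 on the Cav1-shRNA array and 12.23 on the cavtratin array. Ccr2 was the 1 of these 9 below the floor throughout. The monocyte marker Ly6c2 went against the list in cavtratin, at −0.43 from AP control, and was at 1.49 in Cav1-shRNA. In Cav1-shRNA minus cavtratin, where 5 members were lower, 5 neutrophil markers were at least 2-fold lower and 0 higher, with a median of −0.72. Among monocyte and macrophage markers Ly6c2 was higher there, at 1.92, and Cd14 lower, at −2.06, with a median of −0.43. Their part in the values of Il1a, Il1b, Il1rn, Il1f9 and Il1r2 was not tested.

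Resident microglia markers had 0 of 9 at least 2-fold apart in any comparison, medians of 0 in cavtratin and 0.10 in Cav1-shRNA against AP control, summed levels of 9.76, 9.97 and 9.84, and 5 below the floor throughout. Muller glia markers had 0 of 7 at least 2-fold apart, medians of 0 and 0.09 and summed levels of 13.57, 13.64 and 13.67. Endothelial markers had 0 of 6 apart, medians of 0.25 and 0.29 and summed levels of 10.62, 10.92 and 10.86. Of 9 lens markers, 5 were at least 2-fold higher in cavtratin, all of them crystallins (Cryaa, Cryab, Cryba1, Cryba4 and Crygs), with a list median of 1.09 and summed levels of 11.10 on the AP array, 11.09 on the Cav1-shRNA array and 13.26 on the cavtratin array. The 4 other lens markers did not reach 2-fold: Mip was at −0.06, Lim2 at 0, Bfsp2 at 0.11 and Bfsp1 at 0.52, the last 3 below the floor throughout. Like Il1a and Il1b, the crystallins were high in cavtratin alone, and their part in the values of these genes was not tested. Markers of surface epithelium were mostly low. Of 9 measured, 8 were below the floor on all 3 arrays, 0 were 2-fold apart in any comparison, and the medians were −0.10 in cavtratin and 0.16 in Cav1-shRNA. Their summed level was 8.96 on the AP array, 9.23 on the Cav1-shRNA array and 8.76 on the cavtratin array. Sprr1a, the 1 above the floor, was at 7.53, 8.03 and 7.06 in the same order, and most of each sum came from the 8 low genes. The part of surface epithelium in the values of Il1f9 was not tested. Retinal pigment epithelium markers had 0 of 7 apart, medians of 0 in both and summed levels of 10.88, 10.87 and 10.97.

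**Figure D5:**
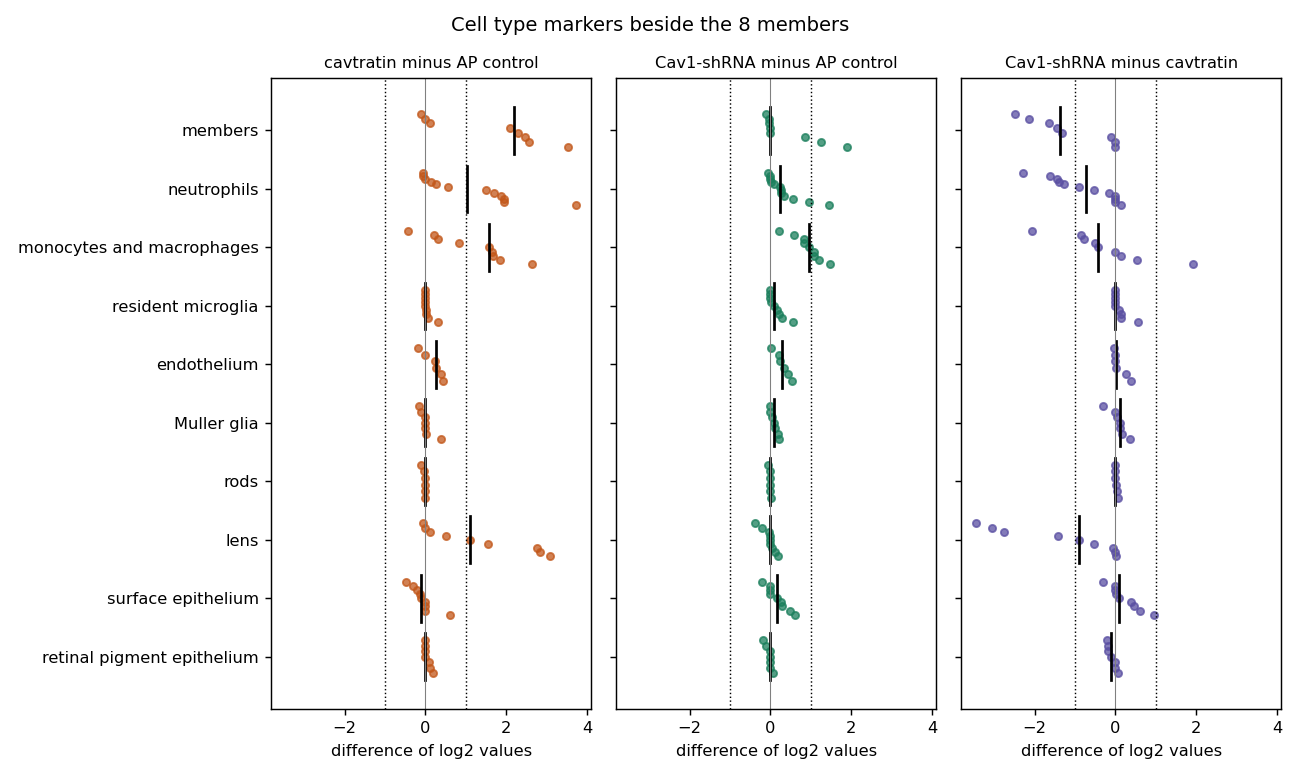
Difference of log2 values (x axis) for the 8 members and 9 lists of cell type markers (rows) in the 3 comparisons (panels), points for genes, bars for list medians and dotted lines at 2-fold. Neutrophil, monocyte and macrophage, and lens markers reach past 2-fold in cavtratin minus AP control, with medians of 1.02, 1.58 and 1.09, and no microglia, Muller glia or rod marker reaches 2-fold, the farthest being Trem2 at 0.57 in both Cav1-shRNA panels.

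Genes with the nearest profile over the 3 arrays were found by the Euclidean distance between values after each gene's mean was subtracted, among 11510 genes. With 3 arrays this likeness is a description and says nothing of shared function. Nearest to Il1b were Ccl4, a chemokine gene, at a distance of 0.051, Cxcl2, a neutrophil chemokine gene, at 0.20 and Nlrp3 at 0.33. Il1a had Crygs, a lens crystallin gene, nearest at 0.24, then Ccl4 at 0.26 and Cxcl2 at 0.29. Crygs was at 7.76 in AP control and Cav1-shRNA and at 10.52 in cavtratin.

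For Il1f9 the nearest were Clec4e, a C-type lectin receptor gene of myeloid cells, at 0.098, Ccrl2, a chemerin-binding receptor gene, at 0.13 and Saa3 at 0.26. For Il1r2 they were Trem1, an activating receptor gene of neutrophils and monocytes, at 0.064, Nos2, inducible nitric oxide synthase, at 0.096 and Lilrb4a, an inhibitory receptor gene of myeloid cells, at 0.11. For Il1rn they were Tnfrsf23, a decoy receptor gene of the tumor necrosis factor family, at 0.18, Igsf6, an immunoglobulin superfamily gene, at 0.20 and Slfn2, a schlafen gene, at 0.22. The neighbours of Il1a and Il1b were at or near the control level on the Cav1-shRNA array, from 0 for Crygs to 0.26 for Nlrp3. Those of Il1f9, Il1r2 and Il1rn were 0.76 to 2.11 above AP control there, as follows from how they were chosen.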

How the data were processed

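Expression was measured on Affymetrix whole-transcript arrays, 1 per group, from biotin-labelled cDNA of pooled retinae, per the labels' protocols. The deposited values, 1 per probe set for 41345 probe sets, were used as given and read as log2 from their range. Log base and summarisation, like the normalization, were not given in the sources used here. The platform's annotation, of uncertain age, gave 1 symbol to 23521 probe sets, several to 1814 and none to 16010, and only those with 1 symbol were named. The probe set with the highest mean over the arrays stood for a gene, leaving 22180 genes.

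At least 2-fold apart means that a gene's 2 arrays differed by at least 1 and the higher reached the floor of 6.5, the median over probe sets with 1 symbol. Equal means within 1e-09. With 1 array per group no test was possible, and the number of arrays limits the precision. The members and lists were chosen with earlier results of these data known. From each pathway list up to 4 genes with the largest differences at or above the floor were named, and for each member at least 2-fold apart the 3 nearest profiles. Low genes (Il1f5, Il1f6, Il1f8, Il1f10, Il1rl2, Il18r1, Casp1) were named for their place in the family or pathway, and Il18rap and single genes of the marker lists after their values were seen. Some listed genes were not analysed here. Alternatives were centring, quantile normalization, a loess trend (span 0.3), the mean of all probe sets, other floors and other folds. Counting was tested on simulated data. Python 3.11.15, pandas 2.3.3, numpy 2.4.6 and statsmodels 0.14.6 were used.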

Additional observations from a re-analysis of the deposited data

How the results depend on the processing

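Of 96 values of the members' differences under other scalings or the mean of all probe sets, 96 moved by less than the SD between probe sets of one gene. The near-zero differences of Il1a and Il1b between Cav1-shRNA and AP control changed sign within that range, as did that of Il1rap between cavtratin and AP control, from 0.12 to −0.0045 with the mean of all probe sets. Only Il1rap had several probe sets, so that mean could not move the value of any other member. The loess trend was close to 0 and left the values almost as they were. Centring shifted all genes of a comparison by 1 constant. It was 0.0067 in cavtratin minus AP control, 0.058 in Cav1-shRNA minus AP control and 0.051 in Cav1-shRNA minus cavtratin. Each was below the SD between probe sets there (0.139, 0.0887 and 0.134), so the outcome of centring was fixed in advance. The count of 96 therefore includes values that had little or no room to move. Counts of members at least 2-fold apart were 5, 2 and 5 in cavtratin minus AP control, Cav1-shRNA minus AP control and Cav1-shRNA minus cavtratin. They stayed the same under every scaling, with no floor, with the 25th percentile as floor and at 1.5-fold. A floor at the 75th percentile gave 4, 0 and 4, since the levels themselves fell below it, and 3-fold gave 5, 1 and 3. Over all genes, 156, 39 and 4 were higher and 11, 14 and 90 lower. At 1.5-fold these were 251, 103 and 11 higher and 27, 42 and 175 lower, at 3-fold 86, 9 and 1 higher and 5, 6 and 26 lower, and with the 75th percentile as floor 81, 16 and 2 higher and 5, 5 and 54 lower. No paired analysis was possible because each group has 1 array. Low values of Il1f9 and Il1r2 in AP control limit their folds.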
